A study of Rattus norvegicus with 20 samples.

Results

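Transcript levels in blood cells of 5 WKY rats (WKY/NCrl) were compared with those of 5 LEW rats (LEW/Crl), all fed a standard chow diet (STD). The 10 arrays were chosen by the strain and diet in their titles, out of 20 arrays in the series, and all 28826 probe sets of the array were described. All rats were males of 15 weeks that had been on their diet for 7 weeks and carried no engineered allele, and each array held the RNA of 1 rat, so the replicates are separate animals. The other 10 arrays, 5 from WKY and 5 from LEW rats on a cafeteria diet (CAF) of energy-dense human foods, were used to ask how far the strain difference was seen in other rats on another diet. According to the methods of the study, the rats were fasted before blood was drawn from the abdominal aorta, and the LEW rats were the heavier strain at the start. Strain therefore stands here for everything that separated 2 inbred colonies, body size included, and no cross was made that could assign a difference to a locus.

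WKY and LEW are inbred rats that are widely used to study inherited differences in inflammation. The WKY rat is known for crescentic glomerulonephritis driven by overactive macrophages, and the LEW rat for its susceptibility to experimental autoimmune encephalomyelitis and arthritis. Monocytes are the circulating precursors of many macrophages. They sense microbial products through Toll-like and C-type lectin receptors, signal through NF-kB and the interferon pathway, and release cytokines and chemokines.

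The sample labels give mononuclear cells of peripheral blood as the material, and the study's methods describe monocytes taken from a density gradient by adherence to plastic. Levels are given as normalised log2 signal, on which 1 unit is a doubling of signal, and differences are WKY minus LEW. Monocyte genes were bright in both strains, for example the lysozyme gene Lyz2 at 13.29 in WKY and 13.40 in LEW rats and the endotoxin co-receptor gene Cd14 at 12.70 and 12.72, but so were genes of other blood cells. The T cell receptor gene Cd3e averaged 12.17 in WKY and 12.36 in LEW rats, the B cell gene Cd79b 12.06 and 12.19, and the platelet glycoprotein gene Gp1ba 12.17 and 12.47. The values are therefore those of a mixed blood cell preparation, in which fewer cells of a type and less RNA per cell cannot be told apart. Levels of different genes are not compared here, because each probe set has its own brightness.

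The medians of all arrays lay within 0.1 of each other. The first principal component of the 10 STD arrays held 43.8% of their variance and separated the strains, with WKY rats between 11 and 26.2 and LEW rats between -23.5 and -17.2. WKY rat 1 lay nearest to LEW. Some arrays stood apart for reasons the groups do not give: the mean of 24 heat shock genes was 10.5 in WKY rat 1, 10.86 in LEW rat 2 and 10.43 in LEW rat 3, against 9.88 to 10.09 in the other 7 rats, and LEW rat 4 had the highest means of erythroid genes (9.80) and platelet genes (12.22). The closing section gives the count without the 3 arrays of high heat shock means and the count without LEW rat 4. The arrays are named beside some of the genes they move.

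At an adjusted p under 0.05, 3247 of 28826 transcripts differed between the strains on STD, which is 11.3%. WKY rats had the higher level in 1695 calls (52.2%) and the lower level in 1552. With each array centred on its own median, 3364 were called, 1404 higher and 1960 lower, or 41.7% higher, so the balance of small differences depends on the scaling. Large differences leaned one way: of 769 calls past 1.5-fold, 517 were higher and 252 lower in WKY rats, of 282 past 2-fold 207 were higher and 75 lower, and of 20 past 5-fold 13 were higher and 7 lower. Those 20 are 0.0694% of all transcripts. In 2130 of the 3247 calls (65.6%) no WKY rat overlapped any LEW rat, and groups did not overlap in 2440, or 8.46%, of all transcripts. The median standard error of a difference was 0.07, and for 91.6% of transcripts the 95% interval of the difference lay within 1.5-fold on either side, so that most transcripts that were not called were measured closely enough to show a larger shift.

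Each gene was counted once, by its brightest probe set, in the gene lists that follow. Over all 14497 named genes, 1063 (7.33%) were called higher and 965 (6.66%) lower in WKY rats, and these shares are the background against which the counts of a list are read. A probe set reads the transcript through short probes designed on another rat strain, so that a strain difference in level cannot be told apart here from a strain difference in the sequence under its probes.

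**Figure D1:**
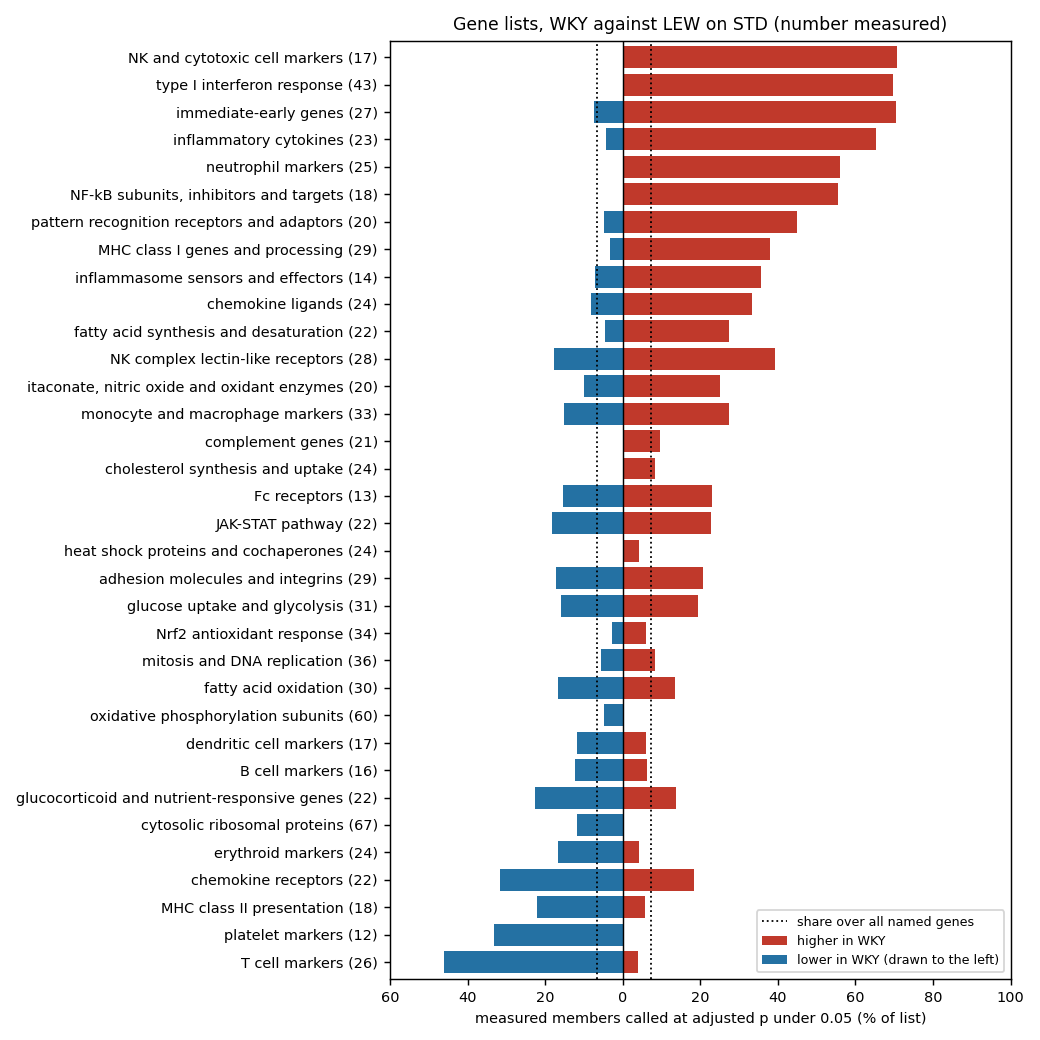
Share of the measured genes of each list called at adjusted p under 0.05 in WKY against LEW rats on STD, higher in WKY to the right and lower in WKY to the left, with the number measured in brackets. Dotted lines mark the shares over all 14497 named genes, 7.33% higher and 6.66% lower. Interferon-response genes had 69.8% of members higher and none lower, and T cell markers 46.2% lower and 3.85% higher.

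Of the 13 named genes past 5-fold, 9 were higher in WKY rats. The furthest apart was Retnlg, which encodes a resistin-like protein secreted by granulocytes in rodents. It measured 10.03, 11.51, 11.15, 10.74 and 11.51 in WKY rats 1 to 5, against 6.87, 8.21, 7.99, 7.24 and 7.71 in LEW rats 1 to 5, a 10.4-fold difference (log2 difference 3.38 ± 0.38, SE, n=5 each, adjusted p=3.85e-06). The lowest WKY rat, rat 1, was still above the highest LEW rat. Xcl1, the chemokine lymphotactin made by natural killer (NK) and activated T cells, measured 10.32, 11.24, 10.55, 12.56 and 11.71 in WKY rats, against 7.58, 8.27, 7.74, 8.37 and 8.0 in LEW rats, a 9.75-fold difference (adjusted p=1.28e-06). Acod1 encodes the mitochondrial enzyme that makes itaconate, a metabolite of activated macrophages. It measured 13.02, 13.48, 13.34, 13.23 and 13.38 in WKY rats, against 11.01, 10.27, 10.73, 9.02 and 9.95 in LEW rats (8.54-fold, adjusted p=3.9e-07). The WKY values lay close together, and the LEW values were spread widely, with rat 4 the lowest.

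Csf1, the growth factor of monocytes and macrophages, measured 9.66, 12.16, 11.53, 11.53 and 12.32 in WKY rats, against 7.89, 8.63, 8.89, 8.20 and 9.10 in LEW rats (7.46-fold, adjusted p=5.32e-05). P2ry13, an ADP receptor, had the same array at the bottom of the WKY group, with 9.42, 11.84, 11.21, 10.85 and 11.81 in WKY rats, against 8.19, 8.46, 8.92, 8.47 and 9.24 in LEW rats (5.16-fold, adjusted p=0.000125). Pglyrp1, a peptidoglycan-binding protein of granules, was 6.25-fold higher in WKY rats at 10.59 ± 0.66, against 7.94 ± 0.27 in LEW rats (SD, n=5 each). WKY rat 1 was the lowest WKY rat for Retnlg, Xcl1, Acod1, Csf1, Pglyrp1 and P2ry13. It was also the lowest WKY rat for the mean of the neutrophil markers described below, which include Retnlg and Pglyrp1. The other 3 genes were Slc27a2, for which WKY rat 1 was also lowest, Plk2 and Mx2. Slc27a2, which imports and activates long-chain fatty acids, measured 7.99, 8.38, 8.32, 9.19 and 8.56 in WKY rats, against 5.96, 5.99, 5.87, 6.08 and 6.04 in LEW rats (5.65-fold, adjusted p=4.97e-10). Plk2, a stress-responsive polo-like kinase, measured 11.32, 11.06, 11.07, 11.06 and 11.11 in WKY rats, against 8.68, 9.11, 8.80, 8.35 and 8.45 in LEW rats (5.45-fold, adjusted p=9.4e-10). The antiviral GTPase gene Mx2 measured 8.77, 8.39, 9.07, 7.92 and 8.49 in WKY rats, against 6.08, 6.23, 6.15, 6.39 and 5.97 in LEW rats (5.14-fold, adjusted p=5.68e-09). None of these genes had overlapping groups.

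**Figure D2:**
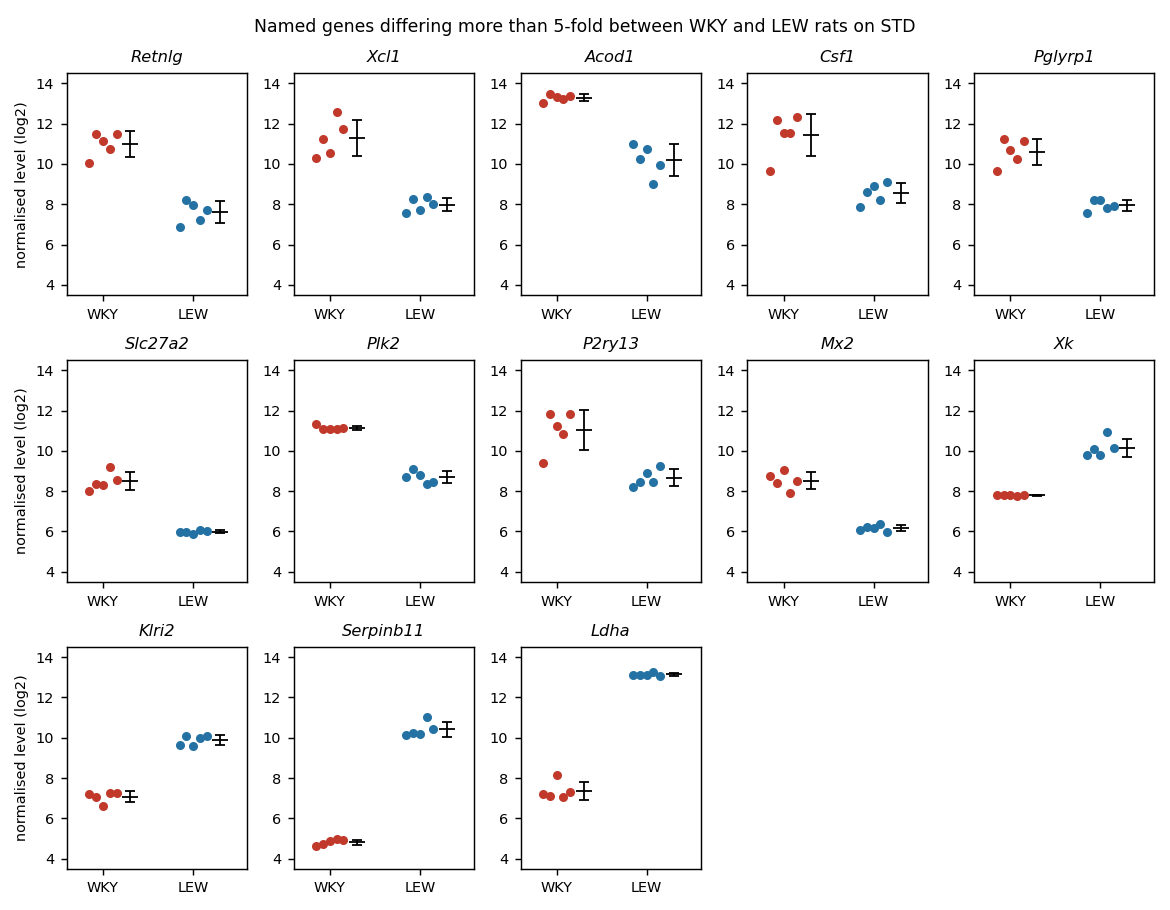
Normalised log2 level of the 13 named genes past 5-fold in each rat on STD, WKY rats left in red and LEW rats right in blue, with the mean and SD of 5 rats in black. For Ldha the probe set that differed is drawn. The 5 WKY rats lay above the 5 LEW rats for 9 genes, from Retnlg (10.99 ± 0.62 against 7.60 ± 0.55) to Mx2, and below them for Xk, Klri2, Serpinb11 and Ldha.

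The remaining 6 of the 15 largest named rises were Car5b (log2 difference 2.32), a mitochondrial carbonic anhydrase, Ifit3 (2.25) and Isg15 (2.15) of the interferon response, Prok2 (2.18), a small secreted chemoattractant, Dgat2 (2.10), the last enzyme of triglyceride synthesis, and Jchain (2.08), the joining chain of secreted IgM and IgA. Car5b was close to even within each strain, at 10.34 ± 0.19 in WKY and 8.03 ± 0.20 in LEW rats (SD, n=5 each). Prok2 and Dgat2 again had WKY rat 1 lowest, at 9.09 and 9.82, where the other WKY rats had 9.81 to 11.22 and 11.23 to 11.98. All 6 had groups that did not overlap.

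Serpinb11 and 1 probe set annotated to Ldha fell further than any named gene rose, and the other named falls were smaller than the rise of Retnlg. Serpinb11, a member of the intracellular clade of serine protease inhibitors, measured 4.62, 4.74, 4.85, 4.96 and 4.91 in WKY rats, against 10.15, 10.23, 10.17, 11.05 and 10.45 in LEW rats, a 48.4-fold difference (log2 difference -5.60 ± 0.15, SE, adjusted p=9.28e-16). The WKY values were near the bottom of the range of the arrays. One of the probe sets annotated to Ldha, lactate dehydrogenase A, measured 7.20, 7.10, 8.14, 7.07 and 7.32 in WKY rats, against 13.12, 13.12, 13.12, 13.27 and 13.08 in LEW rats (54.9-fold, adjusted p=9.28e-16). The other probe set annotated to Ldha measured 12.34 ± 0.07 in WKY and 12.29 ± 0.13 in LEW rats (SD, n=5 each, adjusted p=0.723). So the enzyme's transcript was not shown to differ, and the 54.9-fold difference belongs to 1 probe set. H2az1, a histone H2A variant, was alike in this: it fell by 1.6 on the log2 scale on one probe set (11.04 ± 0.18 in WKY and 12.65 ± 0.14 in LEW rats) and measured 12.41 ± 0.08 in WKY and 12.39 ± 0.09 in LEW rats on the other (adjusted p=0.892).

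Klri2, an NK receptor of the lectin-like family, measured 7.19, 7.08, 6.63, 7.26 and 7.25 in WKY rats, against 9.62, 10.06, 9.60, 9.97 and 10.10 in LEW rats (6.9-fold lower, adjusted p=9.17e-11). Xk, a membrane protein of red cells linked to the Kell blood group, measured 7.82, 7.79, 7.83, 7.77 and 7.83 in WKY rats, against 9.81, 10.09, 9.78, 10.92 and 10.14 in LEW rats (5.07-fold lower, adjusted p=1.85e-08). The WKY values of Xk were within 0.1 of each other, and the highest LEW value was that of rat 4, whose erythroid genes were high. Lyve1, a hyaluronan receptor of lymphatic vessels and some macrophages, averaged 9.36 ± 0.04 in WKY and 11.49 ± 0.33 in LEW rats. The blood group gene Rhd fell by 1.80 on the log2 scale and was uneven in LEW rats, at 6.47, 6.65, 6.80, 6.16 and 6.44 in WKY rats, against 6.86, 7.48, 8.83, 9.78 and 8.56 in LEW rats. The other 8 of the 15 largest falls lay between -1.90 and -1.44. They were Mid1, a ubiquitin ligase on microtubules, Acadsb, a dehydrogenase of branched-chain acyl-CoA, Rab30, a Golgi GTPase, Klrc3, an NK receptor, Neil1, a DNA repair glycosylase, Sv2a, a vesicle protein, Icam2, an integrin ligand, and Pkia, an inhibitor of protein kinase A. Groups overlapped for none of them.

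The 7 transcripts past 5-fold without a gene name were 4 higher and 3 lower in WKY rats. The furthest higher was transcript 10835645, with 11.72 in WKY and 7.68 in LEW rats, and the furthest lower was transcript 10701023, with 4.59 in WKY and 9.21 in LEW rats.

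Type I interferon induces a set of antiviral genes through the factor ISGF3, which binds the interferon-stimulated response element (ISRE) near their start. Of 43 measured genes of this response, 30 (69.8%) had a higher level in WKY rats, 0 a lower one, and the median log2 difference was 0.72 over the list, against 0.0002 over all named genes. The mean of the list was 9.36, 9.53, 9.47, 9.12 and 9.47 in WKY rats 1 to 5, against 8.49, 8.67, 8.70, 8.59 and 8.57 in LEW rats 1 to 5. Every WKY rat had a higher mean than every LEW rat, with WKY rat 4 the lowest of its strain.

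Within the list, Isg15, a ubiquitin-like antiviral protein, measured 9.39, 10.48, 10.21, 9.53 and 10.49 in WKY rats, against 7.42, 8.0, 8.39, 7.67 and 7.87 in LEW rats (adjusted p=4.44e-06). Rtp4, a chaperone of the antiviral response, measured 7.66, 8.11, 7.78, 7.65 and 8.21 in WKY rats, against 5.80, 5.78, 5.89, 5.70 and 5.99 in LEW rats (4.14-fold, adjusted p=2.64e-09). Oas1a, which makes the 2-5A activator of RNase L, averaged 8.51 ± 0.27 in WKY and 7.06 ± 0.18 in LEW rats (2.72-fold, adjusted p=2.8e-07). Ifit2, which binds foreign RNA and blocks its translation, averaged 9.40 ± 0.22 in WKY and 7.80 ± 0.25 in LEW rats (3.03-fold, adjusted p=9e-08). The ligand gene Ifnb1 was not among the genes that differed, at 5.71 in WKY and 5.74 in LEW rats (adjusted p=0.781). Rsad2, the antiviral viperin, was not called either (9.49 in WKY and 9.17 in LEW rats, adjusted p=0.762), nor was Rig1, the cytosolic sensor of viral RNA (8.24 and 8.40, adjusted p=0.16).

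**Figure D3:**
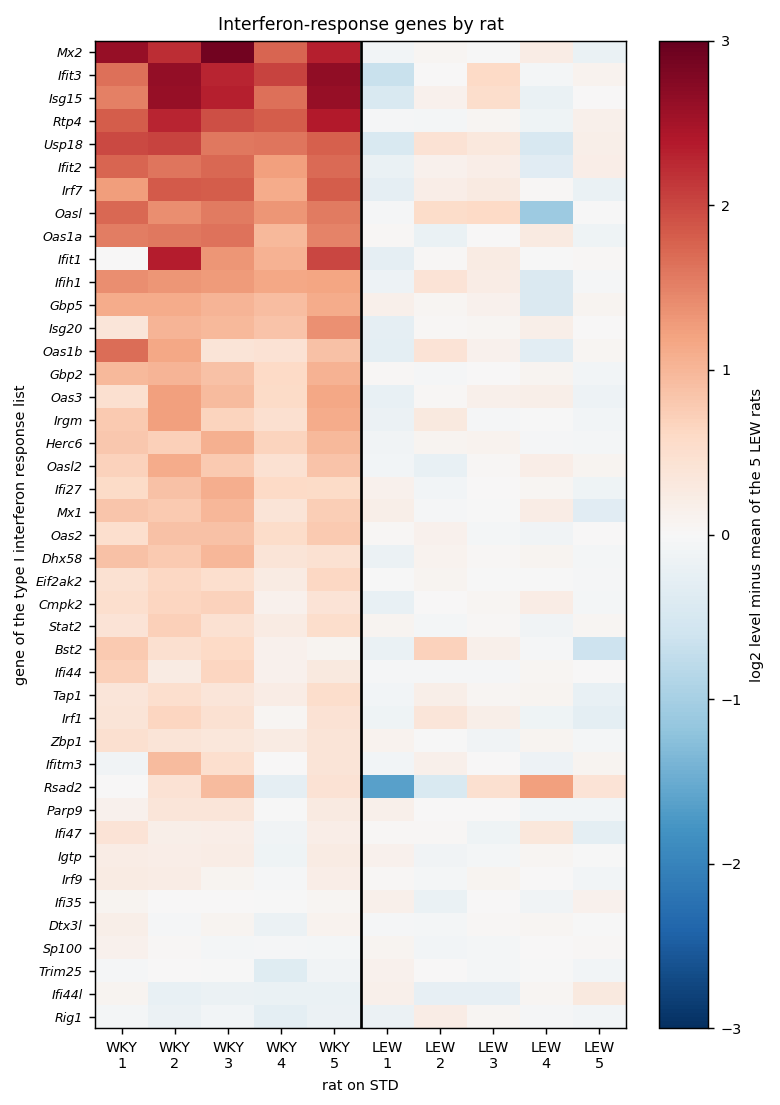
Log2 level of each of 43 interferon-response genes in each rat on STD, minus the mean of the 5 LEW rats, with WKY rats on the left and LEW rats on the right and genes ordered by the WKY mean. Red is above and blue below the LEW mean, from Mx2 at the top (log2 difference 2.36) to Rig1 at the bottom (-0.16). All 5 WKY rats lay above the LEW mean for each gene from Mx2 down to Zbp1 (0.36).

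The promoters of these genes are shown because the list moved together and its response element is known. RefSeq sequences of 250 bases before the start were found for 33 of the 43 genes, in the GRCr8 assembly, which is of the BN strain and neither WKY nor LEW. The ISRE letters searched were GAAA, any 2 bases and GAAA again, on either strand (TTTC, any 2 bases and TTTC on the other). They were present in 20 of the 33 (60.6%) and in 1140 of 33469 RefSeq promoters (3.41%). They were in 15 of the 21 promoters of genes that were higher in WKY rats and in 5 of the 12 of genes that were not called, so promoters with these letters occurred on both sides of the call. Since the list was written from genes known to respond to interferon, the count describes the list and not the strains. The genes printed below were chosen for their promoters. Of these, 6 were higher in WKY rats: Ifit3 (log2 difference 2.25), the master factor Irf7 (1.57), Oas1a (1.45), the RNA sensor Ifih1 (1.26), the exonuclease Isg20 (0.91) and Oas1b (0.91). Rsad2 was not called. A match is a run of letters in the reference and says nothing of binding. Matches are in capitals, each line runs from 5′ to 3′ in the direction of the gene, and Oas1a and its neighbour Oas1b carry the same overlapping pair of matches.
Ifit3 (chr1:241527247-241527325, + strand): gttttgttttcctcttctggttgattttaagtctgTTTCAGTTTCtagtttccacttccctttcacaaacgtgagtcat
Irf7 (chr1:205800048-205800127, - strand): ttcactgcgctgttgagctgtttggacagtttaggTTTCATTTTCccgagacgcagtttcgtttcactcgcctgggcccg
Oas1a (chr12:41330390-41330465, + strand): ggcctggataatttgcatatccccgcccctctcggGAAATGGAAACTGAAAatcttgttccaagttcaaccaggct
Oas1b (chr12:41395861-41395946, - strand): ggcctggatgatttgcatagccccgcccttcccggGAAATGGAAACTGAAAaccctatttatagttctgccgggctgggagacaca
Ifih1 (chr3:67683983-67684062, - strand): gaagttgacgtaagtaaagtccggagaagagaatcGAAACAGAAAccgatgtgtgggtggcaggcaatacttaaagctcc
Isg20 (chr1:142239932-142240011, + strand): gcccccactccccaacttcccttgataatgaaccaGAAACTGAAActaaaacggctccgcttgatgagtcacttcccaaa
Rsad2 (chr6:48788223-48788302, - strand): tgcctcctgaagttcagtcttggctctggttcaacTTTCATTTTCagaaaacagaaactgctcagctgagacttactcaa

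The NF-kB family, a set of dimeric factors held in the cytoplasm by IkB inhibitors until a receptor is engaged, showed the same direction at smaller size. Of 18 measured subunits, inhibitors and targets, 10 (55.6%) were higher and 0 lower in WKY rats, with a median log2 difference of 0.28. The furthest was Icam1, the adhesion molecule of activated cells, at 12.62 ± 0.20 in WKY and 11.80 ± 0.24 in LEW rats (1.77-fold, adjusted p=0.000354). The survival gene Bcl2a1 averaged 12.77 ± 0.17 in WKY and 12.11 ± 0.21 in LEW rats (1.58-fold, adjusted p=0.000299), and the subunit gene Nfkb2 11.54 ± 0.16 and 11.04 ± 0.18 (1.41-fold, adjusted p=0.000685). The inhibitor gene Nfkbib was 1.21-fold higher (adjusted p=0.00127). The kinase genes Chuk, Ikbkb and Ikbkg were not called (adjusted p=0.432, 0.25 and 0.918).

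The letters GGGA, any base and TTTCC, an NF-kB site (GGAAA, any base and TCCC on the other strand), were in 3 of the 15 NF-kB list promoters found and in 105 of 33469 RefSeq promoters (0.314%). They were also in 1 of 17 promoters of the cytokine list, that of Il6. In the NF-kB list they were in 3 of 9 promoters of genes higher in WKY rats and in 0 of 6 of genes not called. Since that list was written from members and targets of the pathway, its count describes the list and not the strains. A match says nothing of binding. All 4 promoters with the letters are printed, and their genes were higher in WKY rats. They are Il6 (log2 difference 1.42), Nfkb2 (0.50), Nfkbia (0.49), the IkB-alpha inhibitor, and Nfkbiz (0.63), a nuclear IkB protein.
Il6 (chr4:5894599-5894678, - strand): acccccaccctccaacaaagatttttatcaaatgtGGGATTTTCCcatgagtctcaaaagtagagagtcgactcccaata
Nfkb2 (chr1:255108319-255108373, + strand): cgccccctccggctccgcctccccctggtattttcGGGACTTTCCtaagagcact
Nfkbia (chr6:78597073-78597138, - strand): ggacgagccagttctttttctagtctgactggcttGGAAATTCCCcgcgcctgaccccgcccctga
Nfkbiz (chr11:58251673-58251720, + strand): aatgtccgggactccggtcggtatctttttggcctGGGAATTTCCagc

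Inflammatory cytokines were higher in WKY rats as a group. Of 23 measured, 15 (65.2%) were higher and 1 lower, with a median log2 difference of 0.62. Tnf, the prototype of the group, measured 13.31, 13.42, 13.15, 13.03 and 13.18 in WKY rats, against 12.55, 12.15, 12.11, 11.71 and 12.07 in LEW rats (2.14-fold, adjusted p=0.000174). Il23a, a subunit of interleukin 23, measured 8.56, 10.39, 9.73, 9.73 and 9.95 in WKY rats, against 7.97, 8.20, 7.90, 7.42 and 7.63 in LEW rats (3.60-fold, adjusted p=9.36e-05). Il18, a cytokine matured by inflammasomes, was 2.01-fold higher in WKY rats, at 9.31 ± 0.18, against 8.31 ± 0.30 in LEW rats (adjusted p=0.000126). Il12a, a subunit of interleukin 12, was 1.46-fold higher (adjusted p=1.71e-05), and its partner Il12b was not called (6.33 in WKY and 6.27 in LEW rats, adjusted p=0.673). The exception in the other direction was Il16, a T cell chemoattractant, with a log2 difference of -0.26.

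Il6 and Il1a, which encode cytokines of fever and the acute phase, were uneven in LEW rats. Il6 measured 10.18, 9.44, 9.78, 9.29 and 9.40 in WKY rats, against 8.89, 9.25, 8.83, 6.80 and 7.20 in LEW rats (2.68-fold, adjusted p=0.036), so LEW rats 4 and 5 were far below LEW rats 1 to 3. Without LEW rat 4 the adjusted p was 0.1, without LEW rat 5 it was 0.106, and the call was also lost without any of WKY rats 1, 2, 3 and 5. Il1a measured 12.02, 12.52, 12.22, 12.32 and 12.09 in WKY rats, against 11.87, 11.67, 11.05, 9.55 and 10.81 in LEW rats (2.37-fold, adjusted p=0.0159). The call of Il1a was lost with the erythroid mean as a covariate (adjusted p=0.0507). Ifng, the interferon of NK and T cells, measured 6.92, 7.43, 6.91, 9.28 and 7.98 in WKY rats, against 5.79, 6.78, 5.90, 6.21 and 5.87 in LEW rats (3.01-fold, adjusted p=0.00191). Groups did not overlap for any of Tnf, Il23a, Il6, Il1a and Ifng.

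The inducible enzymes of activated macrophages followed. Of 20 measured genes of itaconate, nitric oxide and oxidant synthesis, 5 were higher and 2 lower in WKY rats. Besides Acod1, Nos2, the inducible nitric oxide synthase, measured 13.39, 13.51, 13.43, 13.43 and 13.52 in WKY rats, against 12.41, 12.55, 12.58, 11.19 and 12.18 in LEW rats (2.42-fold, adjusted p=0.000623). Ptgs2, the inducible cyclooxygenase, measured 10.77, 11.10, 11.16, 10.98 and 11.10 in WKY rats, against 9.63, 9.97, 9.55, 8.31 and 8.77 in LEW rats (3.43-fold, adjusted p=0.000325). LEW rat 4 was the lowest rat for Acod1, Nos2 and Ptgs2. Alox5, the first enzyme of leukotriene synthesis, was 2.13-fold higher in WKY rats (7.14 ± 0.56, against 6.05 ± 0.18 in LEW rats, adjusted p=0.00146). Cybb, the catalytic subunit of the phagocyte oxidase, was not called (13.10 in WKY and 13.05 in LEW rats, adjusted p=0.683).

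Among chemokine ligands, 8 of 24 were higher and 2 lower in WKY rats. Cxcl10, a ligand induced by interferon, averaged 9.48 in WKY and 8.63 in LEW rats (1.80-fold, adjusted p=0.00579), and Ccl5 12.33 and 11.93 (1.32-fold, adjusted p=0.0118), a call that was lost in a fit of the STD arrays alone (adjusted p=0.0608). Ccl2, the ligand that recruits monocytes through Ccr2, was not called, at 13.34, 13.67, 13.60, 13.58 and 13.51 in WKY rats, against 13.23, 13.16, 12.78, 12.90 and 13.39 in LEW rats (adjusted p=0.0738), although the fit of the STD arrays alone called it (adjusted p=0.0271), as did the fit without LEW rat 5 (0.0494). The 2 ligands that fell were the platelet chemokines Ppbp and Pf4. The call of Ppbp was lost in the fit of the STD arrays alone (adjusted p=0.0512) and with the erythroid mean as a covariate (0.0612), and that of Pf4 was lost without LEW rat 4 (adjusted p=0.09), LEW rat 5 (0.0796), WKY rat 2 (0.0961) or WKY rat 5 (0.0512).

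Of 22 chemoattractant receptors, 4 were higher and 7 lower in WKY rats, the lower share being 31.8%, against 6.66% over all named genes. Ccr2 measured 11.58, 11.33, 11.92, 11.46 and 11.69 in WKY rats, against 12.72, 12.58, 12.48, 12.90 and 12.38 in LEW rats (2.01-fold lower, adjusted p=4.11e-05). Ccr6, a receptor of lymphocytes, was 1.75-fold lower (7.88 ± 0.21 in WKY and 8.68 ± 0.11 in LEW rats) and Ccr7, which directs cells to lymph nodes, 1.26-fold lower. In the other direction, Ccrl2, a decoy-like receptor that binds chemerin, measured 11.51, 11.84, 11.79, 11.63 and 11.80 in WKY rats, against 10.06, 9.66, 9.79, 9.75 and 9.36 in LEW rats (3.98-fold, adjusted p=3.7e-08).

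Of 20 pattern recognition receptors and adaptors, 9 were higher and 1 lower in WKY rats. Clec4e, the Mincle receptor for mycobacterial glycolipids, was 1.67-fold higher (12.43 ± 0.25 in WKY and 11.69 ± 0.22 in LEW rats), Tlr2, a receptor of bacterial lipoproteins, 1.53-fold, and Ly96, the endotoxin-binding partner of Tlr4, 1.49-fold. Clec7a, the Dectin-1 receptor for fungal glucan, was 1.26-fold higher. Tlr4 itself (7.87 in WKY and 7.27 in LEW rats, adjusted p=0.0691) and Cd14 (adjusted p=0.944) were not called. The 1 that was lower was Irak1, a kinase downstream of these receptors (log2 difference -0.18).

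Of 14 inflammasome genes, 5 were higher and 1 lower. Naip6, a sensor of the family that detects bacterial flagellin and secretion needles, measured 9.76, 9.36, 9.79, 9.40 and 9.56 in WKY rats, against 7.73, 7.74, 7.19, 7.65 and 7.90 in LEW rats (3.81-fold, adjusted p=4.73e-09). P2rx7, the ATP-gated channel that triggers the Nlrp3 inflammasome, measured 7.47, 7.34, 7.34, 7.07 and 7.30 in WKY rats, against 6.34, 6.23, 6.35, 6.27 and 6.28 in LEW rats (2.02-fold, adjusted p=1.79e-08). Il1b was 1.37-fold higher (13.52 ± 0.09 in WKY and 13.07 ± 0.20 in LEW rats). Casp1, the protease that matures these cytokines, was the member that was lower (9.718 in WKY and 10.004 in LEW rats, adjusted p=0.0285). Naip genes are close copies of each other, so the probe set may not read Naip6 alone.

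Immediate-early genes, which are transcribed within minutes of a stimulus without new protein synthesis, were the other large block. Of 27 measured, 19 (70.4%) were higher and 2 lower in WKY rats, with a median log2 difference of 0.57. The list mean was 10.83 to 10.98 in WKY rats, against 10.08 to 10.65 in LEW rats, and LEW rat 2, with the highest heat shock mean, was the highest LEW rat. Besides Plk2, Egr1, a zinc-finger factor, measured 12.37, 12.75, 12.72, 12.97 and 12.59 in WKY rats, against 11.85, 11.70, 11.66, 11.90 and 11.45 in LEW rats (1.96-fold, adjusted p=4.75e-06). The orphan receptor gene Nr4a1 averaged 12.81 ± 0.13 in WKY and 12.16 ± 0.19 in LEW rats (1.57-fold, adjusted p=0.000108), and Dusp2, a phosphatase that restrains MAP kinases, 12.14 ± 0.14 and 11.48 ± 0.15 (1.58-fold, adjusted p=9.5e-05). Jun and Fos were not called (adjusted p=0.972 and 0.505). The members that were lower were Klf2 and Jund, with log2 differences of -0.43 and -0.29, and neither was called in the fit of the STD arrays alone (0 lower members).

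In the JAK-STAT pathway the calls went both ways, with 5 of 22 members higher and 4 lower and a median log2 difference of 0.01. Cish, a feedback inhibitor of cytokine receptors, was 2.12-fold higher in WKY rats (9.88 ± 0.33, against 8.79 ± 0.39 in LEW rats) and Stat2, a subunit of ISGF3, 1.39-fold higher. The kinase gene Jak2 and the inhibitor gene Socs5 were lower, each by under 1.3-fold. Stat3 was not called (11.97 ± 0.07 in WKY and 11.79 ± 0.07 in LEW rats, adjusted p=0.103), though its groups did not overlap.

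NK cells kill through perforin and granzymes and are set by a balance of activating and inhibitory lectin-like receptors encoded side by side in the NK gene complex. Of 17 NK and cytotoxic markers, 12 (70.6%) were higher and 0 lower in WKY rats, and the list mean was 9.10 to 9.74 in WKY rats, against 8.41 to 8.82 in LEW rats. Gzma, the granzyme of killer cells, measured 9.96, 10.48, 10.74, 10.50 and 10.81 in WKY rats, against 8.46, 8.75, 8.42, 9.44 and 8.89 in LEW rats (3.27-fold, adjusted p=5.92e-06). Gzmk and Gzmm were 2.13-fold and 2.07-fold higher (adjusted p=2.64e-05 and 3.09e-05). WKY rat 4 had the highest list mean, 9.74. It was the highest rat for Xcl1 and Ifng, which are members of the list and enter that mean.

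The lectin-like receptors did not move as a block. Of 28 measured, 11 were higher and 5 lower in WKY rats, with log2 differences from Klri2 at -2.79 to Klrb1a at 2.05. Klrb1a, of the NKR-P1 family, measured 10.46, 10.82, 10.67, 11.03 and 11.03 in WKY rats, against 8.59, 8.66, 8.46, 9.00 and 9.03 in LEW rats (4.16-fold, adjusted p=2.24e-09). Ly49si1, of the Ly49 family, measured 8.23, 8.03, 7.70, 8.52 and 7.99 in WKY rats, against 6.14, 6.36, 6.44, 6.41 and 6.78 in LEW rats (3.18-fold, adjusted p=2.8e-07). Klrc3, an NKG2 receptor, measured 8.40, 8.73, 8.40, 9.02 and 8.90 in WKY rats, against 9.88, 10.34, 10.18, 10.99 and 10.68 in LEW rats (3.31-fold lower, adjusted p=2.46e-06). These receptors are multigene families of near-identical copies, so a probe set may read several of them.

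Markers of other cells moved with the strain. Of 25 neutrophil markers, 14 (56.0%) were higher and 0 lower in WKY rats, with a median log2 difference of 1.18. The list mean was 8.34, 9.36, 9.07, 8.80 and 9.36 in WKY rats 1 to 5, against 7.72, 8.11, 8.03, 7.68 and 8.01 in LEW rats 1 to 5, so that every WKY rat was above every LEW rat and WKY rat 1 was closest to LEW. S100a9, a calcium-binding protein abundant in granulocytes and also present in monocytes, measured 10.92, 12.31, 12.05, 11.54 and 12.44 in WKY rats, against 9.40, 10.09, 10.30, 9.87 and 9.85 in LEW rats (3.86-fold, adjusted p=0.000152). Padi4, which citrullinates histones in neutrophils, was 2.27-fold higher. Granule genes divided. Mmp8, a collagenase, averaged 11.47 in WKY and 9.68 in LEW rats (adjusted p=0.00128), the antimicrobial peptide gene Camp 9.01 and 7.50 (adjusted p=0.000989), and Lcn2, which binds bacterial siderophores, 10.19 and 8.40 (adjusted p=0.00583). The primary granule genes Mpo, Elane, Prtn3 and Ctsg and the lactoferrin gene Ltf were dim in both strains, between 5.67 and 6.71 in WKY and between 5.62 and 6.51 in LEW rats, and were not called. Members that were not dim also went without a call. These were Ngp (10.19 in WKY and 9.32 in LEW rats, adjusted p=0.23), Olfm4 (8.07 and 7.52, adjusted p=0.406) and Chi3l1 (12.31 and 12.18, adjusted p=0.527).

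With the mean of the neutrophil markers of each array as a covariate, a fit chosen after these values were seen, 501 transcripts were called in place of 3247, and 472 of the 501 were among the 3247. In that fit 14 of 43 interferon-response genes, 2 of 23 cytokines, 0 of 18 NF-kB genes, 4 of 27 immediate-early genes and 3 of 17 NK and cytotoxic markers were called higher, and 16 transcripts passed 5-fold. Of the T cell markers given below, 3 were called lower with the covariate, against 12 without it. A lost call was not always a smaller difference. The median standard error was 0.115 with the covariate and 0.0689 without it, and the 2775 lost transcripts kept a median of 71.3% of their log2 difference. In 1534 of them the difference was not reduced by more than 1.5 times. In the other 1241 it was, and 102 of these had the opposite sign. The lost interferon-response genes kept a median of 50.3%, NF-kB genes 40.4% and cytokines 59.5%. For lost immediate-early genes it was 76.4%, for NK and cytotoxic markers 77.8% and for T cell markers 69.6%. The 12 lost neutrophil markers, which enter the covariate themselves, had a median share of -1.24%. The neutrophil mean did not overlap between the strains on STD, and the part of neutrophils in these differences cannot be told apart from strain.

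Monocyte and macrophage markers were split, with 9 of 33 higher and 5 lower, and their mean overlapped between the strains (9.47 to 9.64 in WKY and 9.43 to 9.57 in LEW rats). The extracellular matrix gene Fn1 measured 11.25, 11.66, 11.26, 11 and 11.19 in WKY rats, against 12.61, 12.59, 12.40, 12.75 and 12.39 in LEW rats (2.42-fold lower, adjusted p=9.93e-07). Clec12a, an inhibitory lectin of myeloid cells, measured 10.14, 10.16, 10.08, 9.88 and 10.33 in WKY rats, against 8.76, 8.93, 8.5, 8.66 and 8.44 in LEW rats (2.75-fold higher, adjusted p=7.94e-08). The low-affinity IgG receptor gene Fcgr3a was 2.62-fold higher (9.64 ± 0.33 in WKY and 8.25 ± 0.48 in LEW rats, adjusted p=0.000106). Ccr2, of classical monocytes, and Cx3cr1, of non-classical monocytes, were both lower, Cx3cr1 at 9.32 in WKY and 10.27 in LEW rats (log2 difference -0.95, adjusted p=0.00205).

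T cell markers went the other way. Of 26 measured, 12 (46.2%) were lower and 1 higher in WKY rats, with a median log2 difference of -0.25, and the list mean was 10.39 to 10.73 in WKY rats, against 10.76 to 10.91 in LEW rats. The 1 higher member, Lat, lost its call without the 3 arrays of high heat shock means. Cd2, an adhesion receptor of T and NK cells, measured 10.16, 10.10, 9.92, 9.93 and 9.85 in WKY rats, against 11.17, 11.18, 11.09, 11.12 and 10.67 in LEW rats (2.08-fold lower, adjusted p=6.73e-06). Trat1, an adaptor of the T cell receptor, was 2.12-fold lower (8.78 ± 0.33 in WKY and 9.87 ± 0.09 in LEW rats) and Gata3, the factor of T helper cells, 1.53-fold lower. Genes of the T cell receptor complex and its coreceptors fell on both sides of the threshold. Cd247, the zeta chain, had a log2 difference of -0.30 (adjusted p=0.00973), Cd3d -0.28 (adjusted p=0.0428) and the coreceptor gene Cd8b -0.46 (adjusted p=0.00241), while Cd3e (adjusted p=0.0587), Cd3g (0.457), Cd4 (0.774) and Cd8a (0.848) were not called.

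B cell markers were called in 3 of 16 cases. Jchain was higher in WKY rats, at 9.83, 10.06, 9.73, 10.15 and 10.74, against 8.33, 7.59, 8.27, 8.42 and 7.48 in LEW rats. The low-affinity IgE receptor gene Fcer2 was 2.20-fold lower in WKY rats and Fcrla 1.5-fold lower, and the pan-B cell genes Ms4a1 and Cd22 were not called (adjusted p=0.887 and 0.987). Of 12 platelet markers, 4 were lower and 0 higher, among them the ADP receptor gene P2ry12 (11.07 ± 0.07 in WKY and 11.63 ± 0.33 in LEW rats), and of 24 erythroid markers 4 were lower and 1 higher. The erythroid mean overlapped between the strains, at 8.44 to 9.03 in WKY and 8.41 to 9.80 in LEW rats, and globin genes were not called (Hbb adjusted p=0.86, Hbb-b1 0.168). Against the other red cell genes, Rhag, the Rh-associated ammonia channel, was 2.08-fold higher in WKY rats, at 8.86, 8.69, 8.60, 8.84 and 8.81, against 7.49, 7.05, 7.54, 8.54 and 7.91 in LEW rats.

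**Figure D4:**
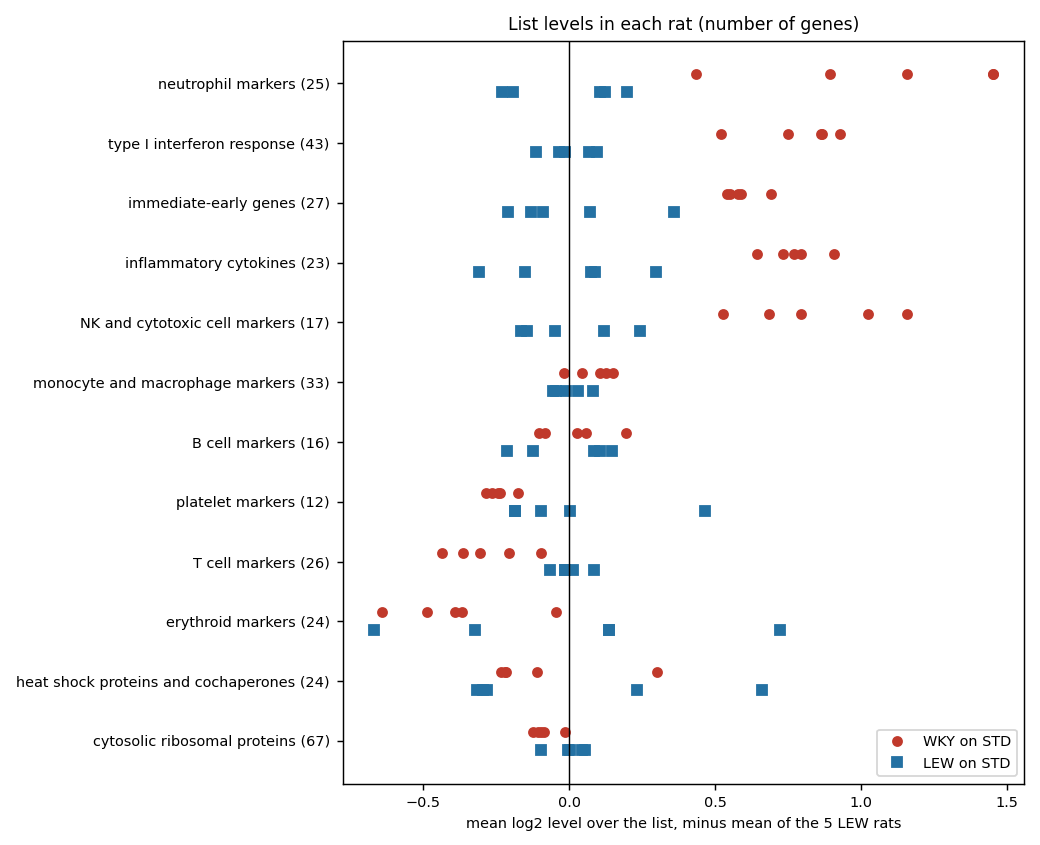
Mean log2 level over each gene list in each rat on STD, minus the mean of the 5 LEW rats, with WKY rats as red circles above and LEW rats as blue squares below. The strains did not overlap for neutrophil markers (8.34 to 9.36 in WKY and 7.68 to 8.11 in LEW rats before subtraction), interferon-response genes, immediate-early genes, cytokines, NK markers and T cell markers. They overlapped for monocyte, B cell, platelet, erythroid, heat shock and ribosomal protein genes.

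Of 29 genes of the MHC class I region and its processing machinery, 11 were higher and 1 lower in WKY rats. Psmb9, an interferon-induced subunit of the immunoproteasome, was 1.45-fold higher (10.79 ± 0.17 in WKY and 10.25 ± 0.12 in LEW rats), and Psme2, of its activator, was 1.23-fold and 1.26-fold higher on its 2 probe sets. Both calls of Psme2 were lost without the 3 arrays of high heat shock means (adjusted p=0.0687 and 0.0765). The class I gene RT1-S3 was 1.38-fold higher, and Erap1, the aminopeptidase that trims peptides, was 1.57-fold lower (9.64 ± 0.08 in WKY and 10.29 ± 0.12 in LEW rats, adjusted p=2.21e-05). RT1 genes are highly polymorphic between rat strains and close in sequence. Of 18 class II presentation genes, 4 were lower and 1 higher, and no test compared the classes. The class II genes RT1-Ba, RT1-Bb, RT1-Da and RT1-Db1 and Cd74 were not called (adjusted p=0.489, 0.583, 0.763, 0.253 and 0.998). Of the 4 lower members, Rfxank is a subunit of the class II promoter complex. It lost its call in the fit of the STD arrays alone (adjusted p=0.069) and without LEW rat 5 (0.0643) or WKY rat 1 (0.0572). Ctss, the protease cathepsin S, lost it in the fit of the STD arrays alone (adjusted p=0.0874) and without any of LEW rats 1, 2 and 4 and WKY rats 4 and 5 (0.0563 to 0.0911). The costimulatory ligands, counted in the class II list, moved apart. Cd80 was 1.74-fold lower (10.75 ± 0.12 in WKY and 11.55 ± 0.18 in LEW rats) and Cd86 1.43-fold higher (9.79 ± 0.17 and 9.28 ± 0.15).

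Among 13 Fc receptors, 3 were higher and 2 lower. Fcar, the IgA receptor, was 3.76-fold higher in WKY rats but its groups overlapped, because WKY rat 1 had 7.44 and the other WKY rats 9.43 to 10.18, against 6.75 to 8.14 in LEW rats (adjusted p=0.00393). Of 29 adhesion molecules, 6 were higher and 5 lower, with Lyve1, Icam2 and Fn1 among the lower and Pecam1, which guides leukocytes through endothelium, among the higher. Pecam1 measured 10.46, 10.64, 10.50, 10.58 and 10.40 in WKY rats, against 9.79, 9.79, 9.84, 9.86 and 9.85 in LEW rats (1.61-fold, adjusted p=5.43e-09). Of 21 complement genes 2 were called, both higher, a share near the 7.33% over all named genes. They were Cd55, which protects host cells (1.28-fold higher), and Itgam, a chain of complement receptor 3 (1.40-fold higher). The call of Itgam was lost without LEW rat 4 (adjusted p=0.0663), WKY rat 2 (0.0628) or WKY rat 5 (0.0751).

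In lipid and glucose metabolism a few genes moved far while most did not. Of 22 genes of fatty acid synthesis and desaturation, 6 were higher and 1 lower in WKY rats. Fads1, the delta-5 desaturase, measured 9.38, 9.69, 9.56, 9.44 and 9.54 in WKY rats, against 7.85, 7.05, 7.89, 8.62 and 8.0 in LEW rats (3.12-fold, adjusted p=9.44e-05), and Acsl5, an acyl-CoA synthetase, was 1.35-fold higher. Me1, the malic enzyme that supplies NADPH, was 1.61-fold lower. Of 30 genes of fatty acid oxidation, 4 were higher and 5 lower. Acadsb was 3.55-fold lower, at 7.28, 6.75, 7.10, 7.14 and 6.94 in WKY rats, against 8.76, 8.88, 8.83, 8.75 and 9.14 in LEW rats, whereas Acaa2, the mitochondrial thiolase, was 1.79-fold higher (8.96 ± 0.21 in WKY and 8.13 ± 0.31 in LEW rats).

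Of 24 cholesterol genes, 2 were higher and 0 lower, and the higher share was near the 7.33% over all named genes. Abca1, the cholesterol exporter, measured 11.01, 11.03, 11.05, 10.91 and 10.85 in WKY rats, against 9.31, 9.18, 9.18, 8.71 and 9.10 in LEW rats (3.67-fold, adjusted p=1.07e-10), and Lss, lanosterol synthase, was 1.72-fold higher. Acss2, which activates acetate, was not called (9.14 ± 0.18 in WKY and 8.95 ± 0.23 in LEW rats, adjusted p=0.404). Of 31 genes of glucose uptake and glycolysis, 6 were higher and 5 lower. The transporters Slc2a4, Slc2a6 and Slc2a3 were 2.50-fold, 2.33-fold and 2.32-fold higher in WKY rats, with groups that did not overlap, and hexokinase 2 (Hk2) was 1.6-fold lower (8.94 ± 0.14 in WKY and 9.62 ± 0.15 in LEW rats).

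Sgk1, a kinase induced by glucocorticoids and growth factors, was 1.93-fold higher in WKY rats, at 12.20, 12.44, 12.29, 12.21 and 12.39, against 11.17, 11.61, 11.38, 11.37 and 11.25 in LEW rats (adjusted p=1.84e-07). The list of glucocorticoid and nutrient-responsive genes it belongs to had 3 of 22 higher and 5 lower. The lower ones included Foxo1 (1.30-fold), the factor restrained by insulin, Sesn3 (1.29-fold), a stress sensor, and the insulin receptor Insr, which was 1.5-fold and 1.48-fold lower on its 2 probe sets. Of 34 genes of the Nrf2 antioxidant response, 2 were higher and 1 lower, shares below the 7.33% and 6.66% over all named genes. Gpx3, the secreted glutathione peroxidase, was 2.83-fold higher (9.32 ± 0.15 in WKY and 7.82 ± 0.37 in LEW rats), Slc7a11, the cystine importer, 2.03-fold higher, and Sod1 1.53-fold lower. The call of Slc7a11 was lost when any 1 rat was left out other than LEW rats 2, 3 and 5 (adjusted p=0.0533 to 0.109).

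Housekeeping lists are read beside the shares over all named genes, 7.33% higher and 6.66% lower. The lower share of the ribosomal proteins was above that background, a comparison that was not tested. Of 60 subunits of oxidative phosphorylation, 0 were higher and 3 lower (5.00%), and of 36 genes of mitosis and DNA replication 3 were higher and 2 lower. Of 67 cytosolic ribosomal proteins, 0 were higher and 8 lower (11.9%), all by under 1.4-fold on the brightest probe set, and with each array centred on its median the balance of small differences shifts further to lower. The call of Rpl8 was lost in the fit of the STD arrays alone (adjusted p=0.06). Other probe sets of Rps9 were not called (adjusted p=0.0612 and 0.999), nor was 1 of Rps12 (0.383). The remaining probe sets of Rps12 and those of Rps23 were called lower. Of 24 heat shock genes, 1 was higher, Hspa4l (1.96-fold), and 0 were lower, while the list mean ran from 9.96 to 10.5 in WKY and from 9.88 to 10.86 in LEW rats. Of 17 dendritic cell markers, 1 was higher and 2 were lower, among them Tcf4, the factor of plasmacytoid cells (1.37-fold lower).

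Of 18 listed genes named by the study in its text, 14 were higher and 0 lower in WKY rats on STD by their brightest probe set. The study also names genes that are not among these 18, such as Mpa2l, Klra7, Lilrb3l and Mir223. For Ldha, 1 of the 18, that is the probe set that was not called, and its other probe set was the one 54.9-fold lower. The 18 were chosen by the study on arrays of this series, so this count is not independent evidence of their direction.

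The strain difference on STD was then set beside that in the 10 rats on CAF, which are other animals of the same colonies. On CAF 2185 transcripts were called, and 1528 were called on both diets, which is 47.1% of the STD calls and 69.9% of the CAF calls. All 1528 had the same direction on both diets, and 95.5% of the STD calls had the same sign on CAF. Of the 20 transcripts past 5-fold on STD, 9 were also past 5-fold on CAF, and for 13 the difference was larger on STD. All 20, and the genes given next, were picked by their size on STD, which by itself favours a larger difference there. Serpinb11 had log2 differences of -5.60 on STD and -5.71 on CAF, and Acod1 3.09 and 3.07. Retnlg had 3.38 and 1.93, Csf1 2.90 and 1.68, and Xcl1 3.29 and 2.14.

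The difference between the 2 strain differences was tested as an interaction. No transcript was called (limma, 0 at adjusted p under 0.05, 1714 at an unadjusted P under 0.05), and 376 (1.30%) had an unadjusted P under 0.01, so no strain difference was shown to depend on diet, Retnlg, Csf1 and Xcl1 included (unadjusted P=0.0143, 0.0469 and 0.0265). The smallest P values were those of Krtap5-8, Ncoa3 and Grhl3 (each adjusted p=0.515) and of Hipk1 and Abhd8 (each 0.707). Ncoa3, a nuclear receptor coactivator, had a log2 difference of -0.28 on STD and 0.03 on CAF, and the kinase gene Hipk1 -0.31 and -0.02. The keratin-associated gene Krtap5-8 had 0.16 on STD and -0.41 on CAF on the probe set of its smallest P, and it was not called on STD on any of its 5 probe sets. List medians on STD and CAF were 0.72 and 0.46 for the interferon response, 1.18 and 0.59 for neutrophil markers, 0.57 and 0.35 for immediate-early genes, 0.62 and 0.43 for cytokines and -0.25 and -0.11 for T cell markers. On CAF 26 of the 43 interferon-response genes and 5 of the 25 neutrophil markers were called higher, and the neutrophil mean was 8.31 to 9.01 in WKY rats and 7.89 to 8.65 in LEW rats. The overlap came from WKY rat 3 (8.31) and LEW rat 2 (8.65) on that diet.

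**Figure D5:**
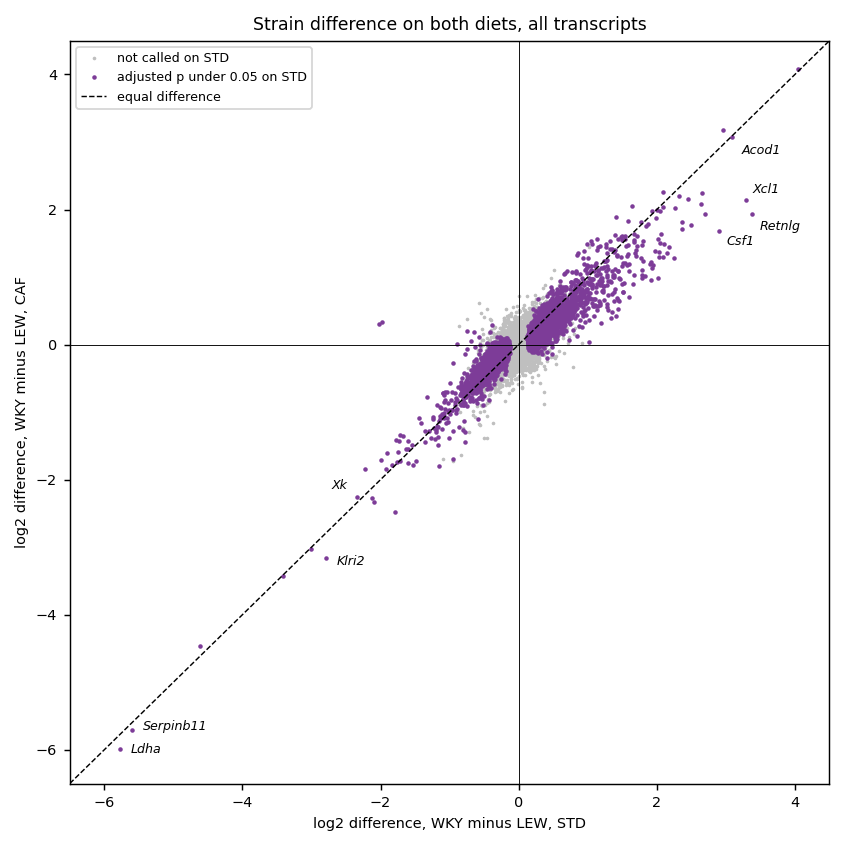
Log2 difference between WKY and LEW rats on STD (horizontal) against that in other rats on CAF (vertical) for all 28826 transcripts, those called on STD in purple, with the line of equal difference dashed. Most called points follow the line, from Ldha (-5.78 and -5.99, on 1 of its probe sets) to Acod1, and Retnlg, Csf1 and Xcl1 lie below it. The 2 points at about -2 on STD and above 0 on CAF are the unnamed transcripts 10700161 and 10812148, whose difference between diets was not called (adjusted p=0.788 and 0.717).

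Several differences were shared by neighbouring genes. In the gene order of the RefSeq annotation there were 32 runs of 3 or more adjacent measured genes called in the same direction, holding 105 genes. They were singled out after the values were seen, and no count expected without clustering was computed. The longest held 7 genes of the Gimap family on chromosome 4, GTPases that keep lymphocytes alive, which were all lower in WKY rats, with log2 differences from -0.69 (Gimap9) to -0.43 (Gimap6). Gimap4 measured 11.50, 11.12, 11.22, 11.24 and 11.20 in WKY rats, against 11.94, 11.99, 11.92, 11.84 and 11.92 in LEW rats, and 6 of the 7 were also called lower on CAF. Gimap5 is the gene whose loss causes lymphopenia in the BB rat, and it measured 8.59, 8.22, 8.23, 8.49 and 8.34 in WKY rats, against 8.91, 8.68, 8.80, 8.94 and 8.85 in LEW rats (adjusted p=8.6e-05). The T cell markers, lower in the same WKY rats, are given above, and their part in the Gimap difference was not tested.

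On chromosome 10, the Schlafen genes Slfn9, Slfn2 and Slfn4, interferon-regulated factors of myeloid and T cells, were all higher in WKY rats. Slfn9 measured 10.90, 10.79, 10.79, 10.94 and 10.87 in WKY rats, against 9.51, 9.46, 9.36, 9.64 and 9.19 in LEW rats (log2 difference 1.43), and Slfn4 12.29, 12.52, 12.58, 12.39 and 12.69, against 11.17, 11.49, 11.32, 11.33 and 11.07 (1.22). Slfn2 was 0.49 higher on the log2 scale on STD and was not called on CAF (0.16, adjusted p=0.301). Other runs joined Ifit2, Ifit3 and Ifit1, the oligoadenylate synthetase genes Oas1k, Oas3 and Oas2, and the class I genes RT1-O1, RT1-N3 and RT1-S3, all higher in WKY rats, and the platelet chemokine genes Pf4 and Ppbp with Cxcl6, all lower.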

How the data were processed

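RNA of 1 rat was hybridised to each Affymetrix Rat Gene 1.0 ST array. The authors deposited normalised log2 values of 28826 probe sets for 20 arrays. Their methods name RMA and the submitters' processing notes name MAS5, so the summarisation method is not settled here. Values were used as deposited, and no column of per-sample values was left unassigned (0). Of the probe sets, 15209 had 1 gene symbol in the platform annotation, 306 had several and 13311 were not listed. A linear model with 1 mean per strain and diet was fitted to all 20 arrays with limma 3.58.1 in R 4.3.3, without a filter, and p-values were adjusted by Benjamini-Hochberg over all transcripts. The tests had 16 residual and 3.67 prior degrees of freedom, and their p-values measure the spread between rats of these colonies. The number of arrays limits the precision. Scripts were tested on simulated data.

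Named genes were the 15 largest rises and falls, all past 5-fold, the 4 of smallest adjusted p of each list, those the study names and the 5 of smallest P for the difference between diets. Members of a list that did not pass were given as examples, and genes named outside this rule, such as those of the printed promoters, the neighbouring runs and some called members of the marker lists, were chosen after their values were seen. Gene lists and members were chosen with earlier results of these data known. Alternatives were the STD arrays alone, a mean-variance trend, median centring, quantile normalisation, a filter on dim transcripts, the replicate number as a block, leaving out each rat, and marker means as covariates. The replicate numbers did not pair the rats of the strains.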

Additional observations from a re-analysis of the deposited data

Results flagged for a closer look

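In 21 of 346 groups of 5 rats, 1 rat stood apart from the other 4 by Dixon's test at the 95% level, where chance alone would give about 17. LEW rat 4 was the outlying rat in 9 of the 21, WKY rats 1 and 2 in 3 each, WKY rats 3 and 4 in 2 each and LEW rats 3 and 5 in 1 each. Values are normalised log2 levels.

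LEW rat 4 was lowest for Nos2 (11.19, other LEW rats 12.18 to 12.58), Clec4e (11.31, others 11.71 to 11.86), Nfkb2 (10.71, others 11.09 to 11.14), Slc2a6 (9.288, others 9.728 to 9.87) and Rpl8 (11.32, others 11.41 to 11.43). It was highest for Me1 (11.32, others 10.32 to 10.58), Slc2a4 (8.907, others 7.949 to 8.175) and both probe sets of Ldha (12.52, others 12.21 to 12.28, and 13.27, others 13.08 to 13.12). LEW rat 5 was lowest for Cd2 (10.67, others 11.09 to 11.18), and LEW rat 3 was highest for Socs5 (11.25, others 11.08 to 11.12).

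WKY rat 1 was lowest for Fcar (7.442, other WKY rats 9.425 to 10.18) and highest for Cr2 (8.723, others 7.936 to 8.079) and Plk2 (11.32, others 11.06 to 11.11). WKY rat 2 was lowest for Epb41 (12.1, others 12.14 to 12.15), Pf4 (12.63, others 12.89 to 12.94) and 1 probe set of Rps23 (11.14, others 11.48 to 11.59). WKY rat 3 was lowest for Klri2 (6.627, others 7.081 to 7.263) and highest for the Ldha probe set that differed between strains (8.14, others 7.074 to 7.316). WKY rat 4 was lowest for the interferon-response genes Ifit2 (9.016, others 9.398 to 9.547) and Oas1a (8.037, others 8.562 to 8.701).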

How the results depend on the processing

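The count of 3247 transcripts called between WKY and LEW rats on STD was 2388 with the STD arrays alone, 3167 with a mean-variance trend, 3364 with centred arrays, 3346 after quantile normalisation, 3205 without the dimmest transcripts, 3144 with the erythroid mean and 2645 with the monocyte mean as a covariate. Leaving out 1 rat gave 2435 to 3414 calls (2940 without LEW rat 4), 19 to 29 transcripts past 5-fold (29 without WKY rat 1) and 0 for the difference between diets. With the replicate block 3384 were called, and rats of the same number did not deviate together (correlations -0.0226 to 0.116). Added after seeing the data, a fit without the 3 arrays of high heat shock means gave 2754 calls and 32 past 5-fold, and a fit with the neutrophil mean as a covariate gave 501. In that covariate fit 76 named results lost their call and 2 more turned to the other sign, Fcar at -0.26 (adjusted p=0.894) and Itgam at -0.041 (adjusted p=0.976). Of these 78, 36 had a difference not reduced by more than 1.5 times and 42 had one that was. The median standard error was 0.115, against 0.0689 without the covariate. No other alternative turned a sign, and each of the others lost at most 10 calls of named results. The cause was not tested. The files used here hold no background measure, so which low values lie at background was not tested.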
